A study of Homo sapiens with 2 samples.

Results

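Cells make cholesterol and fatty acids from acetyl-CoA, and 46 genes of these pathways were followed in wild-type A549 cells (WT) and in A549 cells that overexpress MYOCD. The line A549 was established from a human lung adenocarcinoma, and myocardin, the product of MYOCD, drives smooth and cardiac muscle genes by binding SRF. Total RNA from cells grown in DMEM with serum, with no other treatment labelled, was sequenced as 1 library per group, 2 libraries in all. How MYOCD was introduced, from which promoter, whether the overexpressing cells are a clone and whether WT cells received an empty vector are not stated in the labels. The genes were chosen by symbol, and the list was proposed when the changes of cholesterol synthesis genes in these same libraries were already known. Their values are therefore given as a description, with no test. All 46 symbols, each on 1 row, were found in the table of 56255 symbols, and 44 reached 1 RPKM (reads per kilobase of gene, scaled to library size, so that levels can be compared between genes per length) in at least 1 library, as did 17350 genes in all.

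In the mevalonate pathway, acetyl units are joined to HMG-CoA and then to isoprenoid chains, which are closed into sterol rings and trimmed to cholesterol. The transcription factors SREBP1 and SREBP2 switch on these genes, together with those of fatty acid synthesis, when sterols in the endoplasmic reticulum are scarce. SCAP escorts the SREBP precursors to the Golgi for cleavage, and the INSIG proteins hold SCAP back when sterols are plentiful. In the lung, alveolar cells use these fatty acids and sterols to build surfactant.

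The level of MYOCD itself was 0.304 RPKM in the WT library against 48.6 in the MYOCD library, in the direction of the labels. Of 16 markers of alveolar epithelial cells, 9 reached 1 RPKM. Of these 7 lay above 0 and 2 below it (22.2%, against 50.2% of all genes that reached 1 RPKM). The 2 below were the most abundant, the keratin genes KRT18 (1647 and 1134 RPKM in WT and MYOCD) and KRT8 (1523 and 1059), while CDH1 was level at 35.0 and 35.8. The adhesion gene EPCAM was higher by over 2-fold, at 0.889 and 2.57 RPKM, and the protease gene NAPSA by over 1.5-fold, at 0.394 and 1.04. Both reached 1 RPKM only in the MYOCD library, so their direction followed from that rule. Of the 9 markers, 1 (11.1%) was higher by 2-fold, against 5.42% of all genes that reached 1 RPKM, and 2 (22.2%) by 1.5-fold, against 11.6%. The surfactant protein genes that define alveolar type II cells were at or near 0, SFTPC being listed at 0 in both libraries and SFTPD at 0.0856 and 0.247 RPKM. Adipocyte markers summed to 1.41 and 1.44 RPKM over 6 genes, with ADIPOQ, LEP and CIDEA listed at 0 in both libraries. Hepatocyte markers summed to 6.29 and 3.94 RPKM over 8 genes, with APOH lower by over 2-fold (4.10 and 1.77) and TTR listed at 0. ALB, the only other hepatocyte marker to reach 1 RPKM, was lower too (1.46 and 0.779). SERPINA1, which did not reach 1 RPKM, went the other way, at 0.177 and 0.970. Fibroblast markers summed to 5.75 and 16.2 RPKM over 9 genes, nearly all of it COL1A1 in MYOCD (3.05 and 14.3), with DCN and FAP listed at 0 in both libraries. THY1, the only other fibroblast marker to reach 1 RPKM, went the other way, at 1.91 and 0.959. Blood cell markers summed to 20.7 and 26.5 RPKM over 6 genes, most of it the macrophage and lysosome gene CD68 (18.3 and 25.1) with CD14 at 2.31 and 1.17, while PTPRC and CD3E were listed at 0 in both libraries. Of 5 endothelial markers, 4 were also listed at 0 in both. The part of these markers in the results was not tested. In bulk RNA, fewer cells that express a gene and less RNA per cell cannot be told apart. The lowest non-zero values gave a rough depth of about 17400000 reads in WT against 14800000 in MYOCD, on which the members that reached 1 RPKM would rest on at least 268 reads in WT and 264 in MYOCD (PMVK having the fewest). Whole reads could not be recovered, so no counting interval is given.

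Most members stood lower in MYOCD, by small amounts. The change is given as log2((MYOCD RPKM + 0.5)/(WT RPKM + 0.5)), on which scale the change of low genes is understated. Of the 44 members that reached 1 RPKM, 35 (79.5%) lay below 0, where 50.2% of all genes past that filter did. The median of the members was -0.15 and that of all genes -0.00. At 2-fold or more, which ranks size and tests nothing, 1 member was called lower (2.27%, against 6.35% of all genes) and 0 were called higher (against 5.42%). At 1.5-fold or more 3 were lower (6.82%, against 13.2%) and 4 higher (9.09%, against 11.6%). These shares past either fold were below those of all genes past the filter, and the share below 0 was above. Against protein-coding genes alone the order turned for the genes higher by 1.5-fold, of which there were 8.52% in that background, and against genes with at least 5 RPKM likewise (8.47%). Without a filter it turned for both directions at 1.5-fold, with 3 of 46 members lower and 4 higher against 6.35% and 5.29% of all genes. Among the 22 members that share no exon with another gene and have no named pseudogene, 15 lay below 0, with a median of -0.06. With the median of 11 steady reference genes set to 0, which adds 0.09 to every change, 29 members lay below 0, as did 41.9% of all genes, and NSDHL, EBP, SCAP, ACACA, FASN and FADS1, all close to 0, changed sign.

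**Figure D1:**
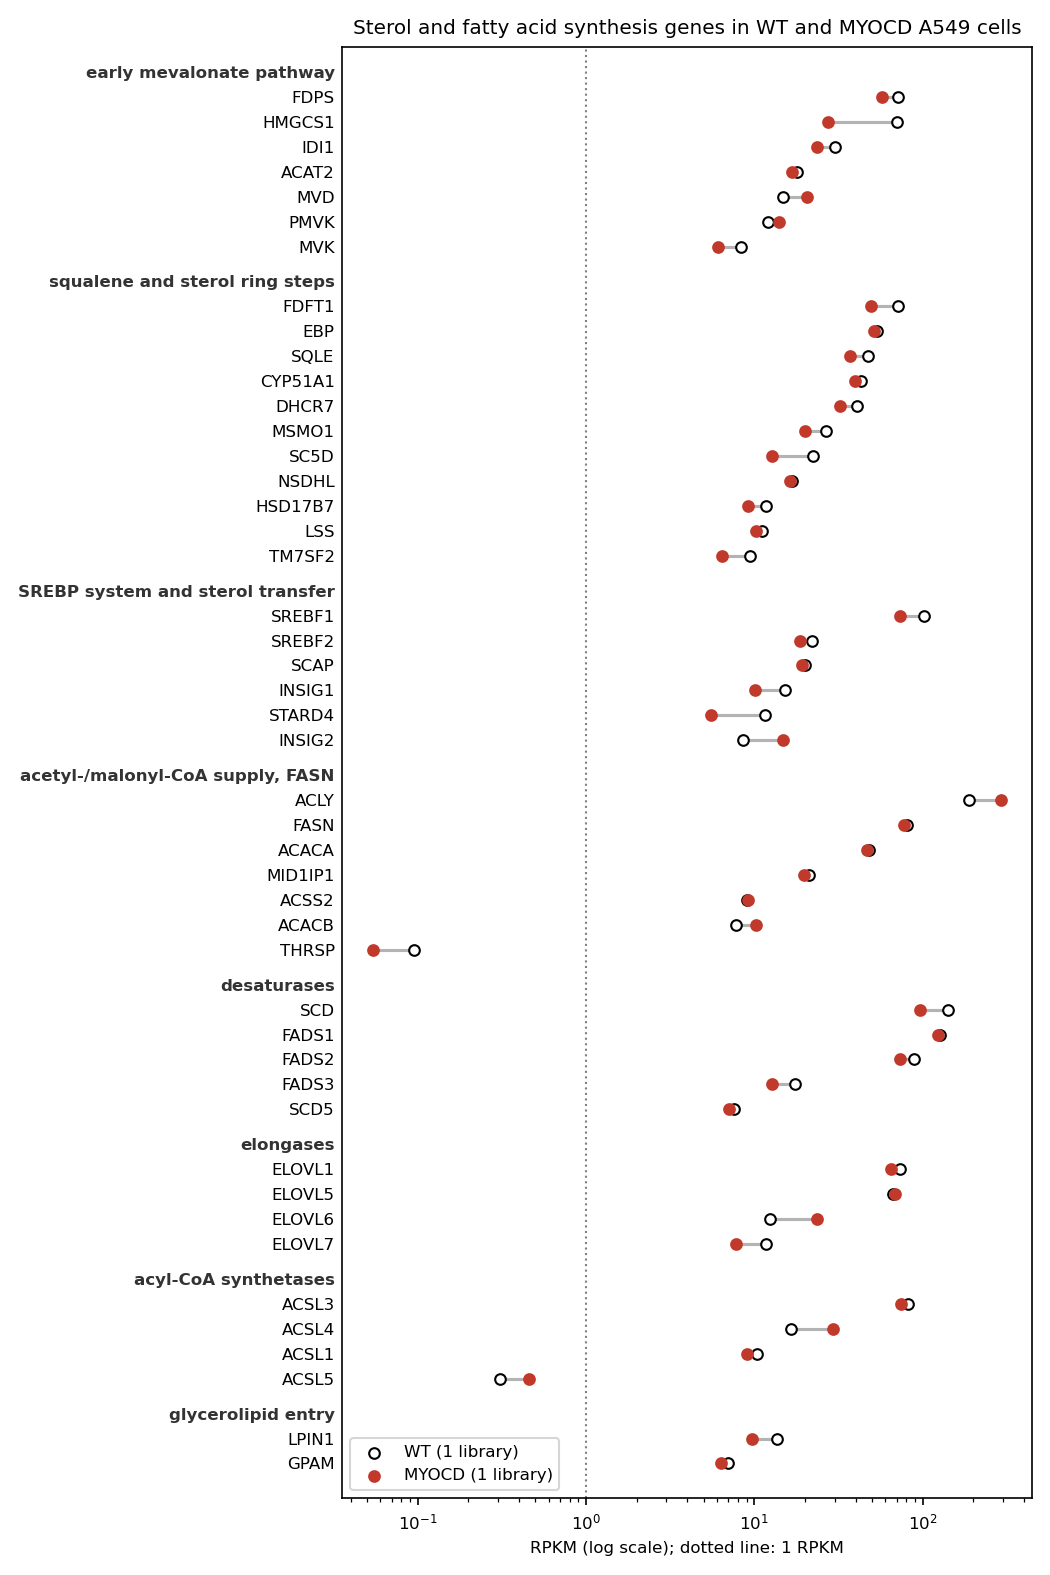
Level of each of the 46 genes in RPKM on a log scale, grouped by role and ordered by the WT level, with open circles for the WT library and red circles for the MYOCD library. HMGCS1 and STARD4 have the widest gaps to the left, INSIG2, ELOVL6 and ACSL4 the widest to the right, and THRSP and ACSL5 lie under 1 RPKM (dotted line) in both libraries.

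The 18 sterol enzymes, from the first condensation to the last ring steps, lay mostly below 0. In number these were 16 (88.9%, against 50.2% of all genes past the filter). With the steady reference genes at 0 they were 14, where 41.9% of all genes lay below 0. By 1.5-fold or more 2 were lower (11.1%, against 13.2% of all genes) and 0 higher (against 11.6%). Their summed level was 579 RPKM in WT against 451 in MYOCD, a difference of -22.2%, and of -16.9% without HMGCS1.

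The early steps went unevenly. HMGCS1, the cytosolic synthase that forms HMG-CoA, measured 70.2 RPKM in WT against 27.5 in MYOCD. The log2 change was -1.34, and the deposited value was 2.56-fold lower. It was the only member past 2-fold, and 4.14% of all genes past the filter had a change as low or lower. The gene (chr5:43289395-43313512, minus strand, GRCh38) has exons that share 703 nt with AC114947.2 on the other strand, which stood at 0.486 and 0.242 RPKM. ACAT2, the cytosolic thiolase of the step before, stood at 17.9 and 16.6 RPKM (-0.10). The ratio of HMGCS1 to ACAT2 within a library, which no scaling between libraries can alter, was thus 3.93 in WT and 1.65 in MYOCD. ACAT2 shares 2996 nt of exons with genes on the other strand, among them TCP1 at 195 and 207 RPKM and SOD2 at 51.5 and 42.3, so its own value is uncertain if strand was not used in counting.

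Mevalonate is phosphorylated by MVK and PMVK and decarboxylated by MVD. MVK measured 8.37 RPKM in WT against 6.12 in MYOCD (-0.42), and it shares 306 nt of exons with MMAB on the other strand, itself at 13.2 and 9.44 RPKM. PMVK and MVD went the other way, at 12.03 and 13.95 RPKM (0.21) and at 14.8 and 20.5 RPKM (0.46). They were the only sterol enzymes above 0, joined by NSDHL and EBP with the steady reference genes at 0, and neither reached 1.5-fold. The next enzyme, the isomerase IDI1, stood at 30.1 and 23.4 RPKM (-0.35), so the ratio of MVD to IDI1 was 0.491 in WT and 0.873 in MYOCD. FDPS, which makes farnesyl diphosphate, stood at 71.4 and 57.4 RPKM (-0.31), and the table holds 8 FDPS pseudogenes with which reads could have been shared. RUSC1-AS1, which shares 693 nt with FDPS on the other strand, stood at 17.1 and 13.7 RPKM.

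All 11 genes of squalene and sterol ring synthesis lay below 0, against 50.2% of all genes past the filter, with a median of -0.34. With the steady reference genes at 0, 9 did, against 41.9% of all genes. SC5D, the desaturase that adds a ring double bond to lathosterol, had the lowest change of these, at 22.4 RPKM in WT against 12.7 in MYOCD (-0.80). It (chr11:121292453-121308694, plus strand) shares no exon with another gene, and was the only ring gene past 1.5-fold. FDFT1, the squalene synthase that commits farnesyl diphosphate to sterols, stood at 71.8 and 49.3 RPKM (-0.54). SQLE, which adds the first oxygen to squalene, stood at 47.6 and 37.0 RPKM (-0.36). These entry enzymes were among the most abundant of the pathway in both libraries.

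The ring genes ranged from values near 0 to values further below it, and the differences among them were not tested. Near 0 were the cyclase LSS (11.04 and 10.3 RPKM, -0.10), the demethylase CYP51A1 (42.98 and 39.8, -0.11), the dehydrogenase NSDHL (16.8 and 16.4, -0.03) and the isomerase EBP (53.4 and 51.6, -0.05). Further down were the methyl oxidase MSMO1 (26.7 and 19.97 RPKM, -0.41), the ketoreductase HSD17B7 (11.8 and 9.22, -0.34), the reductase TM7SF2 (9.46 and 6.44, -0.52) and the last reductase DHCR7 (40.5 and 32.4, -0.32). CYP51A1 and NSDHL act in the same demethylation stretch as MSMO1 and HSD17B7, so neighbouring steps had unlike values. CYP51A1 shares 2943 nt of exons with other gene models on its own strand, and the table holds 3 CYP51A1 and 2 HSD17B7 pseudogenes, so these values are uncertain. TM7SF2 shares 16 nt on its own strand with VPS51, which stood at 49.2 and 49.0 RPKM.

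**Figure D2:**
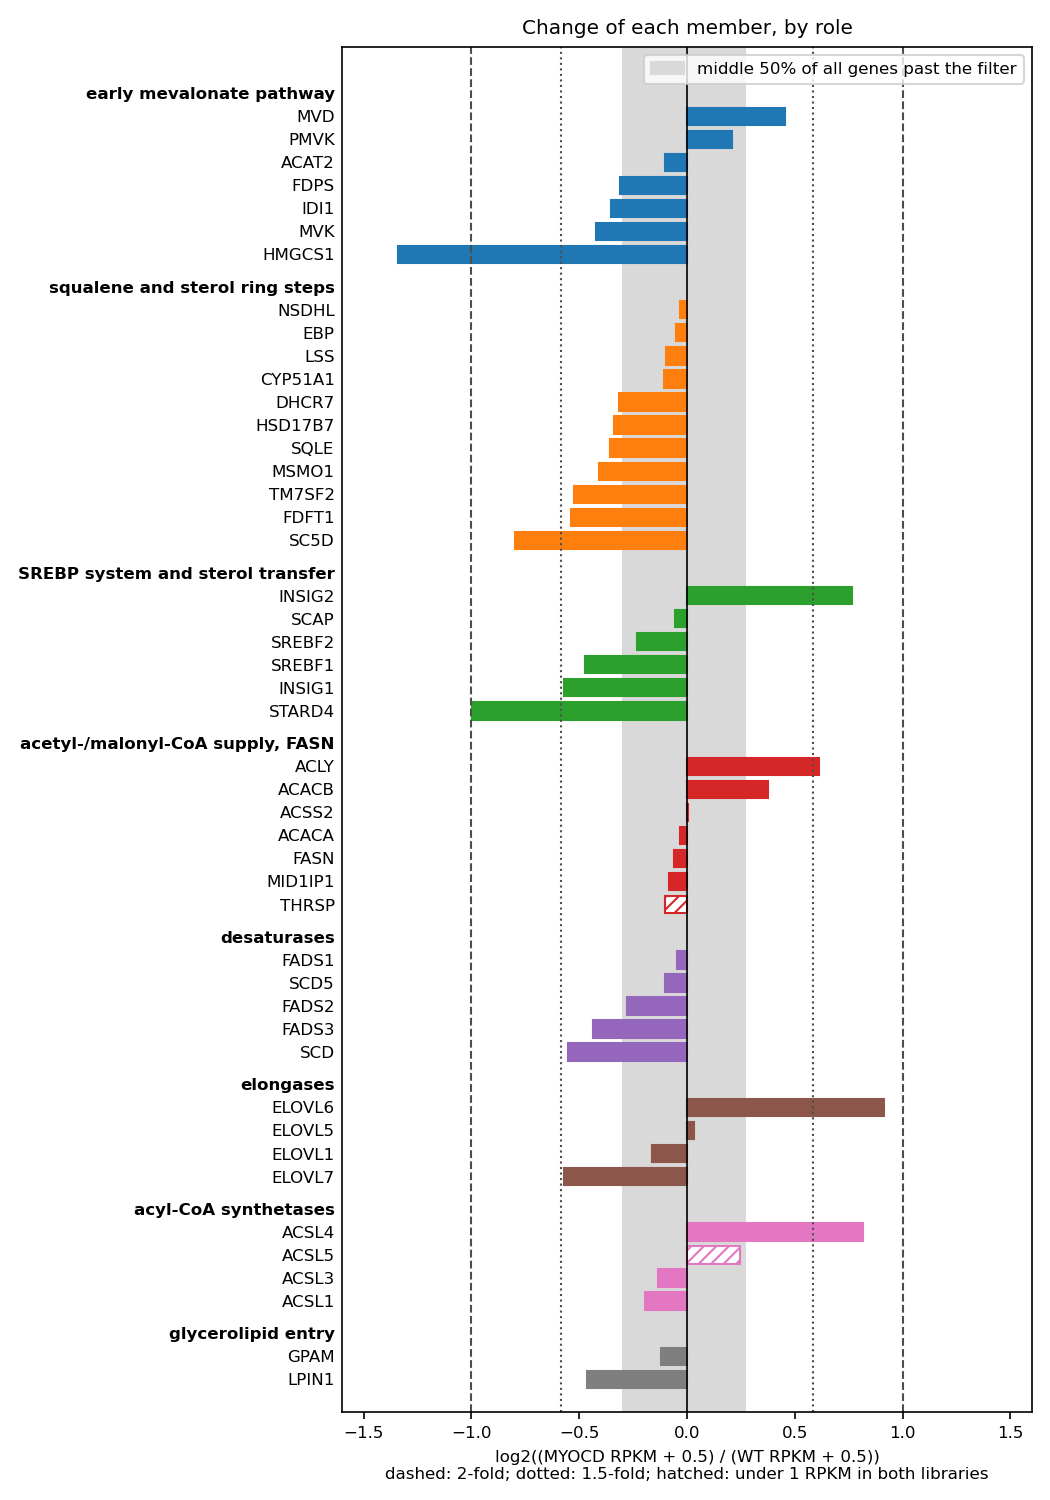
Bars give the log2 change of each gene between the single MYOCD and WT libraries, by role, with the middle 50% of all genes past the filter (from -0.30 to 0.27) in grey. HMGCS1 alone passes the dashed 2-fold line, STARD4 lies on it at -0.998, all 11 ring genes point to the left (9 with the steady reference genes at 0), and the highest bars are ELOVL6, ACSL4, INSIG2 and ACLY.

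Among the regulators, the INSIG genes went in opposite directions. INSIG1, itself an SREBP target, measured 15.2 RPKM in WT against 10.04 in MYOCD (-0.57). INSIG2, whose protein does the same work but whose gene is not switched on by SREBP in the same way, stood at 8.55 and 14.9 RPKM (0.76). The order of the pair was therefore reversed: the ratio of INSIG1 to INSIG2 was 1.77 in WT and 0.674 in MYOCD. Neither INSIG1 (chr7:155297776-155310235, plus strand) nor INSIG2 (chr2:118088452-118110997, plus strand) shares exons with another gene.

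The other SREBP genes stood lower or level. SREBF1, which encodes SREBP1 and is the more abundant of the pair in these cells, measured 102 RPKM in WT against 73.5 in MYOCD (-0.47). SREBF2, which encodes SREBP2, the main driver of sterol genes, stood at 22.2 and 18.8 RPKM (-0.23), and SCAP at 19.9 and 19.1 (-0.06). SREBF1 shares 556 nt of exons with RAI1 on the other strand, which stood at 16.4 and 17.4 RPKM. STARD4, which carries cholesterol between membranes and is a sterol-responsive gene, stood at 11.5 and 5.53 RPKM. Its log2 change of -0.998 fell just short of the 2-fold rule, while the deposited value was 2.09-fold lower. With a pseudocount of 0.1 RPKM its change was -1.05, and with trimmed scaling -1.001, just past the rule.

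The start regions of these genes are shown because SREBPs act there together with NF-Y, which binds the CCAAT box, and Sp1, which binds the GC box. RefSeq promoters (GRCh38.p14, 250 bases before to 50 after a start) matched 42 members. The 4 without one were ACAT2 (-0.10), FDFT1 (-0.54), SQLE (-0.36) and FASN (-0.06), which are missing from the motif shares and medians. The stretches below end before the first transcribed base in GENCODE release 29 and run 5′ to 3′ on the gene's strand, with capitals for matches, on either strand, to TCACNCCAC (a sterol regulatory element), ATCACNTGA (an E-box-like SREBP site), ATTGG (an inverted CCAAT box) or GGGCGG (a GC box), overlapping matches running together.
HMGCS1, chr5:43313513-43313662, minus strand: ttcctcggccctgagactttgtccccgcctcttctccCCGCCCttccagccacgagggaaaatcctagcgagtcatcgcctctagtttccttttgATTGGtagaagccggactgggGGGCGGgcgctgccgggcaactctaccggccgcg
INSIG1, chr7:155297628-155297775, plus strand: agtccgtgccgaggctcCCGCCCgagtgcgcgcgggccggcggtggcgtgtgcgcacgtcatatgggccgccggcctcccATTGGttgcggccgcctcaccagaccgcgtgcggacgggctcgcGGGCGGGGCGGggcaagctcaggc
INSIG2, chr2:118088221-118088451, plus strand: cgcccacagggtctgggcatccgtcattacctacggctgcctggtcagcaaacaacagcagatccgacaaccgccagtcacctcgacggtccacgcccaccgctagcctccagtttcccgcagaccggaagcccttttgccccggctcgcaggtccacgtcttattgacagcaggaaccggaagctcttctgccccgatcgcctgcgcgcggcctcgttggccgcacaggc
SREBF2, chr22:41832855-41833078, plus strand: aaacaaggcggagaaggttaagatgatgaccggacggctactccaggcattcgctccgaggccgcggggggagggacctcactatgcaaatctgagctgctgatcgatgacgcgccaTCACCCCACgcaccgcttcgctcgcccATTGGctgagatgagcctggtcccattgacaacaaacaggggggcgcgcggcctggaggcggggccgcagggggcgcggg

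HMGCS1, INSIG1 and SREBF2 hold an ATTGG in these stretches, and SREBF2 also holds TCACCCCAC, 133 bases before its RefSeq start. The promoter of its paralog SREBF1, not printed, held GGGCGG and none of the other motifs. The INSIG2 stretch holds none of the 4 motifs, although a GGGCGG lies 7 bases before the RefSeq start, past the end of the printed stretch. INSIG1 has 1 match to the E-box-like letters, TCACGTGAT, 56 bases before its RefSeq start and likewise past the printed end. A match is a run of letters and not a measured binding site.

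Over all members with a promoter, 31 of 42 (73.8%) held ATTGG at 1 or more of their RefSeq starts. The same letters were in 34.6% of all 35116 promoters and, counted by gene, in 43.2% of the 9972 genes past the filter that had a promoter. GGGCGG was held by 38 members (90.5%), against 45.0% of promoters and 76.8% of those genes. TCACNCCAC was rare, being held by SREBF2, ACSL1 and MID1IP1 (7.14%, against 1.13% of promoters and 1.41% of those genes), and ATCACNTGA by INSIG1 and THRSP (4.76%, against 0.843% and 1.17%). The members with ATTGG that reached 1 RPKM had a median change of -0.21 over 30 genes, and those without it -0.05 over 10. Of such members above 0, ACLY, MVD, ACACB, ELOVL5 and ACSS2 held ATTGG, and INSIG2, ELOVL6, ACSL4 and PMVK did not. Over all genes past the filter with a promoter, the median change with and without a motif was -0.00 and 0.00 for ATTGG, 0.01 and -0.02 for GGGCGG, -0.01 and 0.00 for TCACNCCAC, and -0.03 and 0.00 for ATCACNTGA. None of these differences was tested. A gene with several RefSeq starts has more chances to hold a motif.

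The fatty acid and glycerolipid genes kept about their summed level, with single genes going either way. They include 4 acyl-CoA synthetases and 2 genes of glycerolipid entry. Over all 22 genes the sum was 1033 RPKM in WT against 1062 in MYOCD, a difference of 2.77%, and of -8.56% without ACLY. Of the 20 that reached 1 RPKM, 14 lay below 0 (70%, against 50.2% of all genes past the filter), and the median was -0.09. By 1.5-fold or more 3 were higher (15%, against 11.6% of all genes) and 0 lower (against 13.2%).

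ACLY, which splits citrate to give cytosolic acetyl-CoA for both pathways, was the most abundant member in each library and stood higher in MYOCD, at 189.6 RPKM in WT against 290.4 in MYOCD (0.61). It lies at chr17:41866908-41930542 (minus strand). The 156 nt gene model AC125257.2 lies wholly within its exons on the other strand and was listed at 3197 RPKM in WT against 4334 in MYOCD. Its part in the ACLY value was not tested. ACSS2, which makes acetyl-CoA from acetate instead, stood at 9.08 and 9.11 RPKM (0.00), so the ratio of ACLY to ACSS2 was 20.9 in WT and 31.9 in MYOCD.

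The carboxylases and the synthase themselves were close to their WT values. ACACA, the cytosolic acetyl-CoA carboxylase that makes malonyl-CoA for synthesis, measured 47.98 RPKM in WT against 46.9 in MYOCD (-0.03). FASN, the multienzyme that builds palmitate, stood at 80.7 and 77.2 RPKM (-0.06). MID1IP1, which promotes polymerisation of the carboxylase, stood at 21.0 and 19.8 RPKM (-0.08), and its relative THRSP at 0.0950 and 0.0546 RPKM, under the filter. ACACB, the mitochondrial carboxylase whose product restrains fatty acid oxidation, stood at 7.75 and 10.2 RPKM (0.38). The ratio of ACACA to ACACB was 6.19 in WT and 4.59 in MYOCD.

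All 5 desaturases lay below 0, against 50.2% of all genes past the filter, with a median of -0.28 and none past 1.5-fold. FADS1 lay just above 0 with the steady reference genes at 0, where 41.9% of all genes lay below it. SCD, which makes oleate and palmitoleate from saturated chains, measured 142 RPKM in WT against 96.9 in MYOCD (-0.55). Its paralog SCD5 stood at 7.62 and 7.07 RPKM (-0.10), and the ratio of SCD to SCD5 was 18.6 in WT and 13.7 in MYOCD. The FADS genes, of which FADS1 and FADS2 encode front-end desaturases of polyunsaturated fatty acids, are neighbours on chromosome 11. Of these FADS1 stood at 127 and 124 RPKM (-0.05), FADS2 at 88.8 and 73.2 (-0.28) and FADS3 at 17.4 and 12.7 (-0.43). FADS2 also shares 49 nt with FEN1 (36.3 and 40.9 RPKM) on its own strand, and SCD and FADS2 have 1 named pseudogene each. FADS1 and FADS2 are transcribed from opposite strands and share 490 nt of exons, so reads there could not be told apart without strand.

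The elongases spread widely. ELOVL6, which lengthens the palmitate that FASN makes, was the highest of all members by change, at 12.4 RPKM in WT against 23.7 in MYOCD (0.91), a 1.92-fold higher deposited value. It (chr4:110045846-110199199, minus strand) shares no exon with another gene. ELOVL7, an elongase of saturated and polyunsaturated very long chains, stood at 11.8 and 7.78 RPKM (-0.57). ELOVL6 and ELOVL7 were at like levels in WT, with a ratio of 1.05, and at a ratio of 3.05 in MYOCD. The abundant ELOVL5, which acts on polyunsaturated chains, stood at 66.7 and 68.3 RPKM (0.03), and ELOVL1, which acts on very long saturated chains, at 72.9 and 65.0 (-0.16).

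The acyl-CoA synthetases, which activate free fatty acids, also differed among themselves. ACSL4, which prefers arachidonate, measured 16.5 RPKM in WT against 29.5 in MYOCD (0.82). It lies at chrX:109624244-109733403 (minus strand). The more abundant ACSL3, which works at lipid droplets, stood at 81.98 and 74.7 RPKM (-0.13), ACSL1 at 10.4 and 9.04 (-0.20), and ACSL5 at 0.310 and 0.459, under the filter. ACSL5 and THRSP share exons with more abundant genes on the other strand, ZDHHC6 (29.3 and 39.4 RPKM) and NDUFC2 (183 and 189), which makes their low values uncertain too. The ratio of ACSL4 to ACSL3 was 0.202 in WT and 0.394 in MYOCD. At the entry to glycerolipids, the acyltransferase GPAM stood at 6.96 and 6.36 RPKM (-0.12) and the phosphatidate phosphatase LPIN1 at 13.6 and 9.74 (-0.47). Exons of IDI1, FDFT1, LSS, SREBF2, STARD4, MID1IP1, ACSL3 and LPIN1 overlap other models on the opposite strand, by 102 nt (ACSL3) to 643 nt (IDI1), and those of ACSL4 and ELOVL1 overlap KCNE5 and MIR6734 on their own strand, as FADS1 does MIR1908, so these values too are uncertain. Where these models have values they were lower than the member in both libraries, the highest being MID1IP1-AS1 at 4.82 and 3.35 RPKM.

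**Figure D3:**
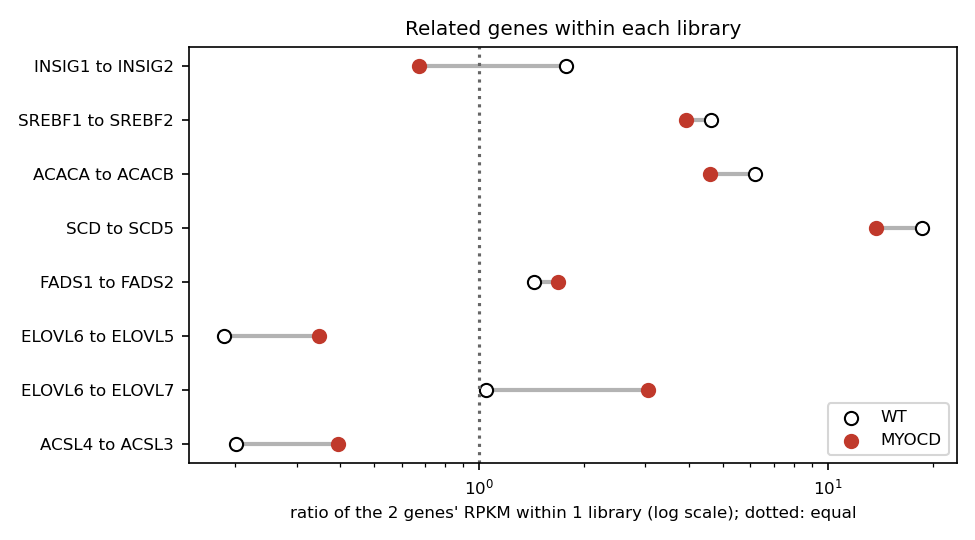
Ratio of the RPKM of related genes within each library, on a log scale, with open circles for WT and red circles for MYOCD. The INSIG1 to INSIG2 ratio crosses the dotted line of equality (1.77 and 0.674), the ELOVL6 to ELOVL7 ratio shows the widest gap of these pairs (1.05 and 3.05), and the SREBF1 to SREBF2 ratio a small one (4.62 and 3.91).

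Genes of neighbouring lipid pathways were listed by function, apart from the members. Of all genes past the filter, 50.2% lay below 0, 13.2% were lower and 11.6% higher by 1.5-fold. Among 10 genes of sterol uptake and endosomal transport, 7 lay above 0 and the median was 0.15. MYLIP, the ubiquitin ligase that degrades lipoprotein receptors, was called lower at 2.63 RPKM in WT against 0.744 in MYOCD. It was the only gene of these neighbouring lists past the filter and past the 2-fold rule. VLDLR (0.988) and, in fatty acid oxidation, EHHADH (0.973) fell just short of the rule, while their deposited values were over 2-fold higher. TMEM97, an endoplasmic reticulum protein that regulates NPC1, stood at 64.7 and 68.5 RPKM and the HDL receptor SCARB1 at 59.6 and 70.6. The lipoprotein receptor gene VLDLR (5.71 and 11.8 RPKM) and the lysosomal cholesterol exporters NPC1 (36.8 and 58.7) and NPC2 (46.0 and 79.1), named after their values were seen, were the 3 higher by 1.5-fold. They made up 30% of the list, and 1 gene (10%) was lower by 1.5-fold. This list thus stood on the other side of 0 from the sterol enzymes, without a test of the difference.

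Of 7 sterol export and liver X receptor genes past the filter 6 lay below 0 (85.7%, against 50.2% of all genes past the filter). SMPDL3A lay above it (0.915 and 1.27 RPKM, 0.32, named after its values were seen). It passed the filter only through the MYOCD library, and ABCG1 (0.793 and 0.358 RPKM) did not pass. For the 7 genes these shares were not tested. Their median was -0.08 with 0 past 1.5-fold, LPCAT3, which remodels phospholipids, standing at 43.2 and 41.5 RPKM and the receptor NR1H2 at 29.4 and 27.9. In esterification and oxidation 3 of 8 genes reached 1 RPKM, with the acyltransferase SOAT1 at 24.8 and 23.3 RPKM and the sulfotransferase SULT2B1 at 18.2 and 17.1. Genes of SREBP cleavage and turnover had a median of -0.17 over 11 genes with 0 past 1.5-fold, the ubiquitin ligase RNF145 standing at 48.5 and 60.8 RPKM and MBTPS1, the protease that makes the first cut in SREBP, at 44.2 and 40.5. The other sterol synthesis genes reported were LBR (66.3 and 83.4 RPKM), ERG28, listed as C14orf1 (10.504 and 9.90), and FAXDC2 (6.96 and 6.12), with a median of -0.08.

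The isoprenoid branches, which use farnesyl diphosphate for prenyl groups and other chains, had a median of -0.10 over 13 genes. In this list 2 genes were lower by 1.5-fold (15.4%, against 13.2% of all genes past the filter) and 0 higher (against 11.6%). The 2 were RABGGTA (12.5 and 7.86 RPKM) and PGGT1B (23.7 and 15.5), both named after their values were seen. FNTA, a prenyl transferase subunit, stood at 42.8 and 46.3 RPKM and RABGGTB at 65.2 and 60.6. NADPH supply genes, which feed reducing power to both syntheses, had 5 of 6 genes below 0 (83.3%, against 50.2% of all genes past the filter). Their median was -0.28, with TKT at 751 and 629.8 RPKM and PGD at 688 and 493. All 6 lay within 1.5-fold. The other fatty acid synthesis and elongation genes centred on 0.05 over 14 genes with 0 past 1.5-fold, HACD3, a dehydratase of elongation, standing at 111 and 106 RPKM and the sphingolipid desaturase DEGS1 at 70.7 and 74.5.

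Storage and breakdown genes had medians slightly above 0. Triglyceride and lipid droplet genes had a median of 0.11 over 15 genes, with GPAT4 at 62.7 and 68.9 RPKM and the monoglyceride lipase MGLL at 35.99 and 59.6. MGLL was higher by 1.5-fold and the lipase gene LIPE lower, at 5.56 and 3.14 RPKM. Fatty acid uptake and binding genes had a median of 0.11 over 8 genes, with the acyl-CoA binding gene DBI at 109 and 96.6 RPKM and FABP5 at 57.7 and 79.5. Fatty acid oxidation genes had a median of 0.06 over 22 genes, with EHHADH higher (2.85 and 6.07 RPKM) and CPT2 lower (4.44 and 2.78) by 1.5-fold and ACADVL at 209 and 231 RPKM and HSD17B4 at 134 and 169. Lipid-sensing transcription factors had a median of -0.01 over 9 genes, PPARG standing at 18.1 and 25.6 RPKM and MLX at 25.4 and 25.2, and PPARA was lower by 1.5-fold, at 2.29 and 1.27. LIPE, EHHADH, CPT2 and PPARA were named after their values were seen.

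**Figure D4:**
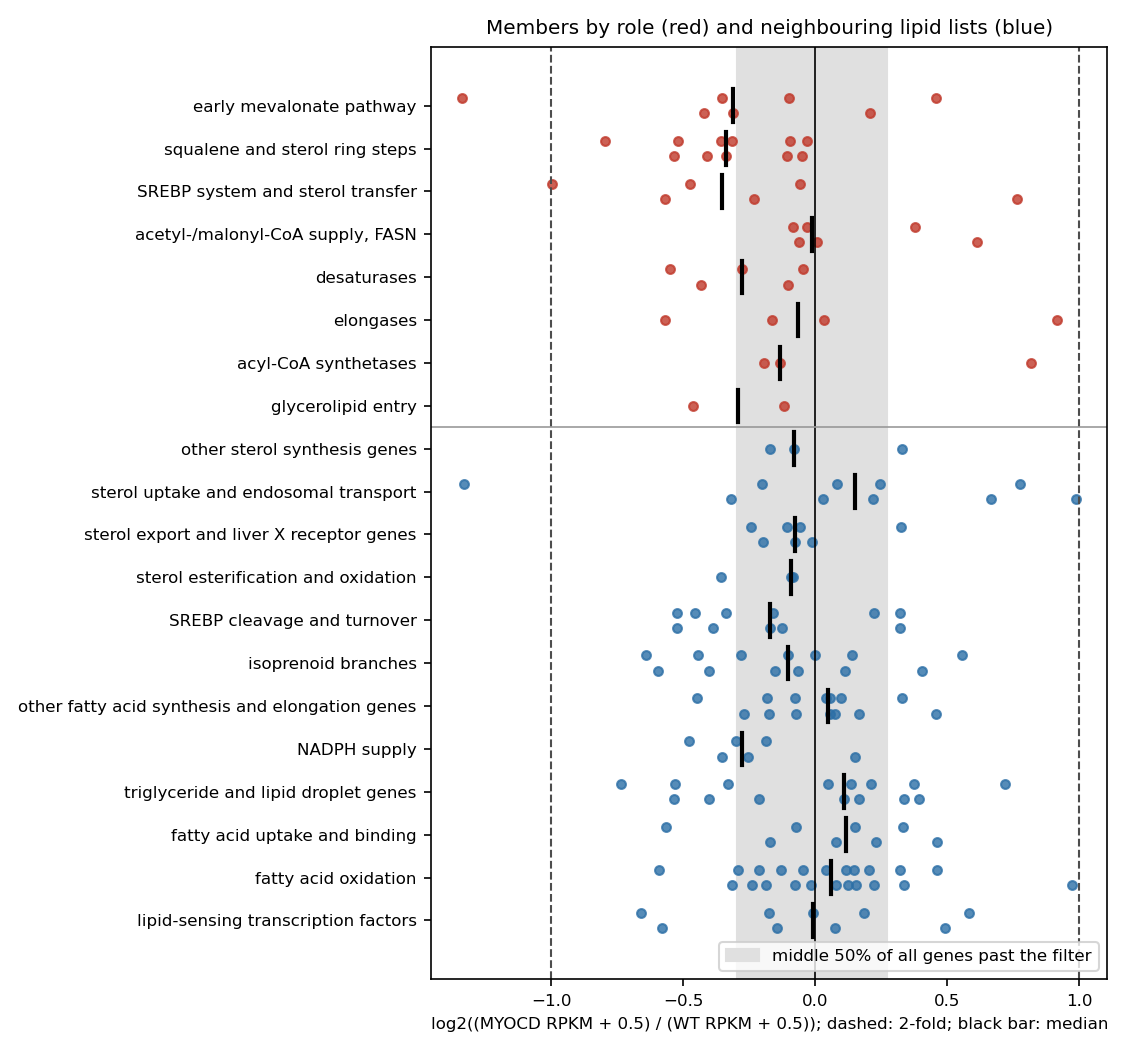
Log2 change of each gene that reached 1 RPKM, for the members by role (red) and for the neighbouring lipid lists (blue), with a black bar at each median and the middle 50% of all genes past the filter in grey. The medians of the 3 sterol roles lie at -0.31, -0.34 and -0.35, and the sterol uptake list has its median at 0.15.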

How the data were processed

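The authors deposited 1 table of RPKM values with a column for each of the 2 libraries, and a key above its header ties each column to its group. Bowtie 0.12.2 and the assemblies mm8 (mouse) and GRCh38.p12 appear in the submitters' processing notes without a role. Counting tool, gene models and use of strand: not given in the sources used here. Members that share exons with other genes, HMGCS1 among them, are therefore named with the overlap, and the values of all of them are uncertain.

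From these values, log2((MYOCD + 0.5)/(WT + 0.5)) was computed for every symbol with Python 3.11.15, pandas 2.3.3 and numpy 2.4.6. A symbol on several rows (248 symbols, none a member) took the row with the highest mean. Genes with at least 1 RPKM in 1 library were counted, at or beyond 2-fold and 1.5-fold. With 1 library per group no test was possible and no p-value is given. The computation was run on simulated data with known changes well past 2-fold. That checks the arithmetic and not the small changes of most members. The members and lists were chosen with earlier results of these data known. Every member is named, and of the other lipid lists the genes past 2-fold and the 2 most abundant. Named cell type markers were chosen after their values were seen. A few genes of those lists, 6 in all, are not reported here and were left out of their counts. Positions and exon lengths came from GENCODE release 29 (GRCh38), which held the identifiers of 57375 of the 57979 deposited gene rows. Depth was estimated from the lowest non-zero values of gene models of at least 1500 nt with 1 transcript. Only 27.8% (WT) and 26.2% (MYOCD) of low values came within 0.1 of a whole read, where 20% would by chance. Pseudocounts, filters, scalings, shared exons, the background and the promoter window were varied.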

Additional observations from a re-analysis of the deposited data

How the results depend on the processing

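Depth cannot be given exactly, and without replicates no difference can be set against the spread between cultures. Wherever an alternative recomputed the median of the members, it lay between -0.15 and -0.06. No paired analysis was possible because each group has 1 library and the result comes from no test. The number of members lower by 2-fold was 2 with a pseudocount of 0.1 RPKM or with trimmed scaling, where STARD4 joined HMGCS1, and 0 among the 22 members without shared exons or named pseudogenes, which leave out HMGCS1. The smaller pseudocount also gave 5 members lower by 1.5-fold. Those 22 members had 1 lower and 2 higher by 1.5-fold, 15 below 0 and a median of -0.06. Without a filter the percent of all genes past 2-fold was 2.57 lower and 2.17 higher, past 1.5-fold 6.35 and 5.29, and below 0 27.6. Among protein-coding genes it was 3.10 and 3.02 past 2-fold and 8.89 and 8.52 past 1.5-fold. Medians near 0 changed sign. Without a filter they were 0.0555 for acyl-CoA synthetases, 0.00144 for sterol esterification and oxidation and -0.0160 for other fatty acid synthesis. With the steady reference genes at 0 they were 0.0702 for acetyl-CoA supply, 0.0213 for elongases, 0.000834 for other sterol synthesis genes, 0.00687 for sterol export and 0.0767 for lipid-sensing factors (0.00311 at the same total RPKM). That of all genes was 0.0826 with the steady genes at 0, 0.00902 at the same total, 0.00401 with at least 5 RPKM and 0.00376 among protein-coding genes.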
